A study of Mus musculus with 9 samples.

Results

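The genes described here are 10 zinc-dependent histone deacetylases, taken as the rows of a deposited count table whose symbol is Hdac1, Hdac2, Hdac3, Hdac4, Hdac5, Hdac6, Hdac7, Hdac8, Hdac9 or Hdac11. They are 10 of the 46078 genes in the table, each symbol occurs on 1 row, and all 10 had enough reads to enter the test. Class I holds Hdac1, Hdac2, Hdac3 and Hdac8, class IIa holds Hdac4, Hdac5, Hdac7 and Hdac9, class IIb is represented by Hdac6, and class IV by Hdac11. The study sequenced transcript 3′ ends in 9 mouse RNA samples of the C57BL/6J strain. The lymphoma group has 6 samples of T cell lymphoma cells from the thymus, whose disease was induced by MYCN, a transcription factor of the MYC family, and the samples carry the numbers 34, 53, 56, 70, 72 and 86. The control group, called CD4, has 3 samples of CD4+ T cells from the spleen, numbered 1, 2 and 3. The promoter that drove MYCN, the age and any treatment of the animals are not given in the sources used here, and nothing says whether the lymphomas arose independently, so p-values measure the spread between these samples.

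Histone deacetylases remove acetyl groups from lysines of histones and of other proteins, and on chromatin this usually goes with lower transcription. The class I enzymes HDAC1, HDAC2 and HDAC3 are the catalytic core of corepressor complexes, with HDAC1 and HDAC2 in SIN3, NuRD, CoREST and MiDAC and HDAC3 in the NCOR complex. Class IIa proteins have little deacetylase activity of their own, bind transcription factors of the MEF2 family, and are moved out of the nucleus when kinases phosphorylate them. In the T lineage, HDAC7 is known as a regulator of thymocyte selection, and HDAC1 and HDAC2 are known to be needed for thymocyte development.

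Reads counted in genes ranged from 11170704 to 15769679 in lymphoma and from 8099960 to 10808828 in CD4. Levels are given as CPM, counts per 1000000 of the scaled library size. The 3′ end counts were not divided by gene length, so levels are compared between libraries and not between genes. The labelled cell types were checked against marker genes. Cd3d, a chain of the T cell receptor complex, had 386 to 512 CPM in lymphoma and 420 to 454 CPM in CD4. The coreceptor gene Cd4 had 6.04 to 71.9 CPM in lymphoma and 199 to 263 CPM in CD4. Of 8 T cell markers, 2 were lower in lymphoma, Cd2 and Cd4. Of 7 CD8 and thymocyte markers, Cd24a was higher in lymphoma and Dntt lower. The CD8 genes Cd8a and Cd8b1 were present in the CD4 libraries, at 25.6 to 31.8 CPM and 35.9 to 44.9 CPM. In lymphoma Cd8a had 0.0645 to 29.4 CPM, with a mean of 5.53 CPM. Cd8b1 had 0 to 47.6 CPM there, with a mean of 8.20 CPM. Both means lay far below the highest value, which therefore does not describe most of the lymphomas. The CD4 libraries also held B cell transcripts: 10 of 10 B cell markers were detected, with a summed level of 1026 to 1194 CPM, against 5.50 to 10.3 CPM in lymphoma. Summed myeloid markers ranged from 69.0 to 2172 CPM in lymphoma, highest in lymphoma 56, and from 796 to 1015 CPM in CD4, and erythroid markers from 22.9 to 902 CPM, highest in lymphoma 86, and from 101 to 359 CPM. Of 12 stromal, endothelial and epithelial markers, 2 were higher and 2 lower in lymphoma: the endothelial gene Pecam1, which made up most of their sum in CD4, had 186 to 199 CPM there and 59.3 to 81.3 CPM in lymphoma, while Epcam was higher in lymphoma without overlap, with at most 1.93 CPM in CD4 and at most 50.7 CPM in lymphoma, and Dcn had 0 counts in CD4 and 1.71 to 7.36 CPM in lymphoma. The part of these cells in the comparisons was not tested. In bulk RNA, fewer cells of a type and less RNA per cell cannot be told apart.

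Hdac1 and Hdac3 had no promoter sequence in the set used here, so their promoters were not searched. Promoter sequences of the other 8 members were found in RefSeq (GRCm38.p6), in 12 windows that start 250 bases before a transcript start. They were searched on both strands, up to 50 bases after the start, for the E-box CACGTG, which MYC family proteins bind, and for the MEF2 consensus, which class IIa partners bind. The E-box was found in 1 of the 12 member windows, and in 7.15% of 32851 windows of the same length across the annotation. The MEF2 consensus was also found in 1 member window, and in 3.19% of all windows. Both matches were in Hdac5, with the MEF2 consensus match at bases -20 to -11 and the E-box at bases 4 to 9, counted from the start. The Hdac5 promoter is shown because it alone of the 12 windows held either motif, with the promoters of Hdac2 and Hdac9, the members with the largest rise and fall, beside it. Capitals mark the motif matches, and each sequence runs 5′ to 3′ on the gene's strand to 30 bases after the start. Hdac2 lies at chr10:36974294-36974573 on the plus strand, Hdac5 at chr11:102230143-102230422 on the minus strand, and the first of the Hdac9 windows at chr12:34917066-34917345 on the minus strand. A match describes letters in this window and not a bound site.
Hdac2: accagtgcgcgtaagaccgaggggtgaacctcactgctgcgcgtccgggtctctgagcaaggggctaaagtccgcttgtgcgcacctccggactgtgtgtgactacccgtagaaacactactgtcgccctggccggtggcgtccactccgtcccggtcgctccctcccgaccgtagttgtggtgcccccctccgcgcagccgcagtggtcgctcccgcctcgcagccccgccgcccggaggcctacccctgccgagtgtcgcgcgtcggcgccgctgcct
Hdac5: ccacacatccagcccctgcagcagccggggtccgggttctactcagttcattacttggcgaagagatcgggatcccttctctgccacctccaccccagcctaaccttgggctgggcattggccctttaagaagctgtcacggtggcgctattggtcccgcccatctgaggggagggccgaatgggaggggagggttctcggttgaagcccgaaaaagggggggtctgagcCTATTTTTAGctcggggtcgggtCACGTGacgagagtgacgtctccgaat
Hdac9: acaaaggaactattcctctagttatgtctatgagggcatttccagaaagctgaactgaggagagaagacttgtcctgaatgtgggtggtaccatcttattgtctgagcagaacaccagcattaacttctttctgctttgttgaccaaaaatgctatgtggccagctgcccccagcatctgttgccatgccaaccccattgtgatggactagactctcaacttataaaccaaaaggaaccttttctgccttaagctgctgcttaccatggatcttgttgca

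Lymphoma was compared with CD4 to ask how deacetylase transcripts differ between MYCN-driven lymphoma cells and control T cells. Of the 10 members, 4 were higher in lymphoma and 1 was lower by edgeR's quasi-likelihood test at an adjusted p under 0.05. The higher members were Hdac1, Hdac2 and Hdac3 of class I and Hdac5 of class IIa, and the lower one was Hdac9 of class IIa. Among all 15401 tested genes 46.6% passed the same test, with 24.7% higher and 21.9% lower, so the share of members called (50%) was close to the background. Class I had 3 of 4 members higher with a median log2 fold change of 0.98. Class IIa had 1 higher and 1 lower of 4 with a median of 0.37. The members of classes IIb and IV did not pass. The median over all tested genes was 0.04, and -0.06 with upper quartile scaling, under which the signs of the 10 members stayed the same. The CPM values of the groups did not overlap for 4 members (40%), namely Hdac1, Hdac2, Hdac3 and Hdac9, while this held for 44.9% of tested genes.

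**Figure D1:**
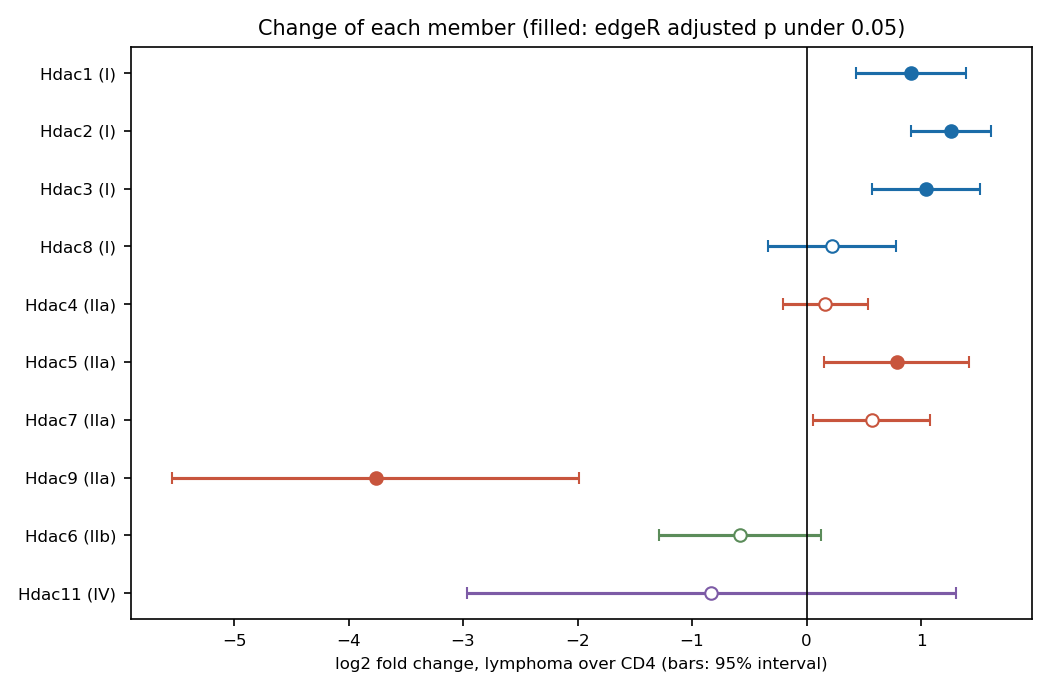
Log2 fold change of each member, lymphoma over CD4, on the horizontal axis, with 95% intervals from the edgeR fit as bars and the class in brackets. Filled points passed at an adjusted p under 0.05: Hdac1, Hdac2, Hdac3 and Hdac5 lie to the right of 0, and Hdac9 lies at -3.76.

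Hdac2 (ENSMUSG00000019777, chromosome 10, plus strand, 36974544 to 37001889 in GRCm38) encodes a catalytic subunit that class I complexes share with HDAC1. It had 54.6, 57.1 and 68.0 CPM in CD4 1, 2 and 3. In lymphoma the lowest value was 129 CPM, the median 143 CPM and the highest 165 CPM. Every lymphoma was above every CD4 library, and lymphoma values were tight around their mean (144 ± 14.1 CPM, SD, n = 6). Hdac2 rose by 1.26 on the log2 scale (SE 0.160, edgeR adjusted p 6.28e-05), a ratio of means of 2.40.

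Hdac1 (ENSMUSG00000028800, chromosome 4, minus strand, 129516104 to 129542713) is the close paralogue of Hdac2. CD4 1, 2 and 3 had 43.2, 33.8 and 32.6 CPM, and the lymphomas ranged from 52.7 CPM to 101 CPM with a median of 64.5 CPM. The highest value was that of lymphoma 53, and the other 5 lymphomas lay at or under 69.4 CPM, all above CD4. Hdac1 rose by 0.91 on the log2 scale (SE 0.220, edgeR adjusted p 0.00508), and it was 0.77 without lymphoma 53. The ratio of Hdac2 to Hdac1 counts was 1.26, 1.69 and 2.09 in the CD4 libraries. In 5 lymphomas it was 2.14 to 2.70, while lymphoma 53 had 1.28, within the CD4 range.

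Hdac3 (ENSMUSG00000024454, chromosome 18, minus strand, 37935844 to 37955016) encodes the deacetylase of the NCOR complex. Its CD4 values were 12.0, 18.1 and 19.9 CPM. Lymphoma values ran from 30.4 CPM through a median of 33.1 CPM to 41.8 CPM in lymphoma 53. The groups did not overlap, and the log2 fold change of Hdac3 was 1.04 (SE 0.217, edgeR adjusted p 0.00201).

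Hdac8 (ENSMUSG00000067567, chromosome X, minus strand, 102284639 to 102505359), which deacetylates the cohesin subunit SMC3, did not pass the test. It had 10.1, 15.4 and 11.01 CPM in CD4 1, 2 and 3 and 11.4 to 17.6 CPM in lymphoma (median 14.3 CPM). The groups overlapped, and the log2 fold change of 0.23 had a 95% interval from -0.34 to 0.79 (edgeR adjusted p 0.507). Of the class I counts, Hdac8 held 9.72% ± 2.27 (SD, n = 3) in CD4 and a smaller share, 5.47% ± 1.03 (SD, n = 6), in lymphoma, and the ranges did not overlap.

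**Figure D2:**
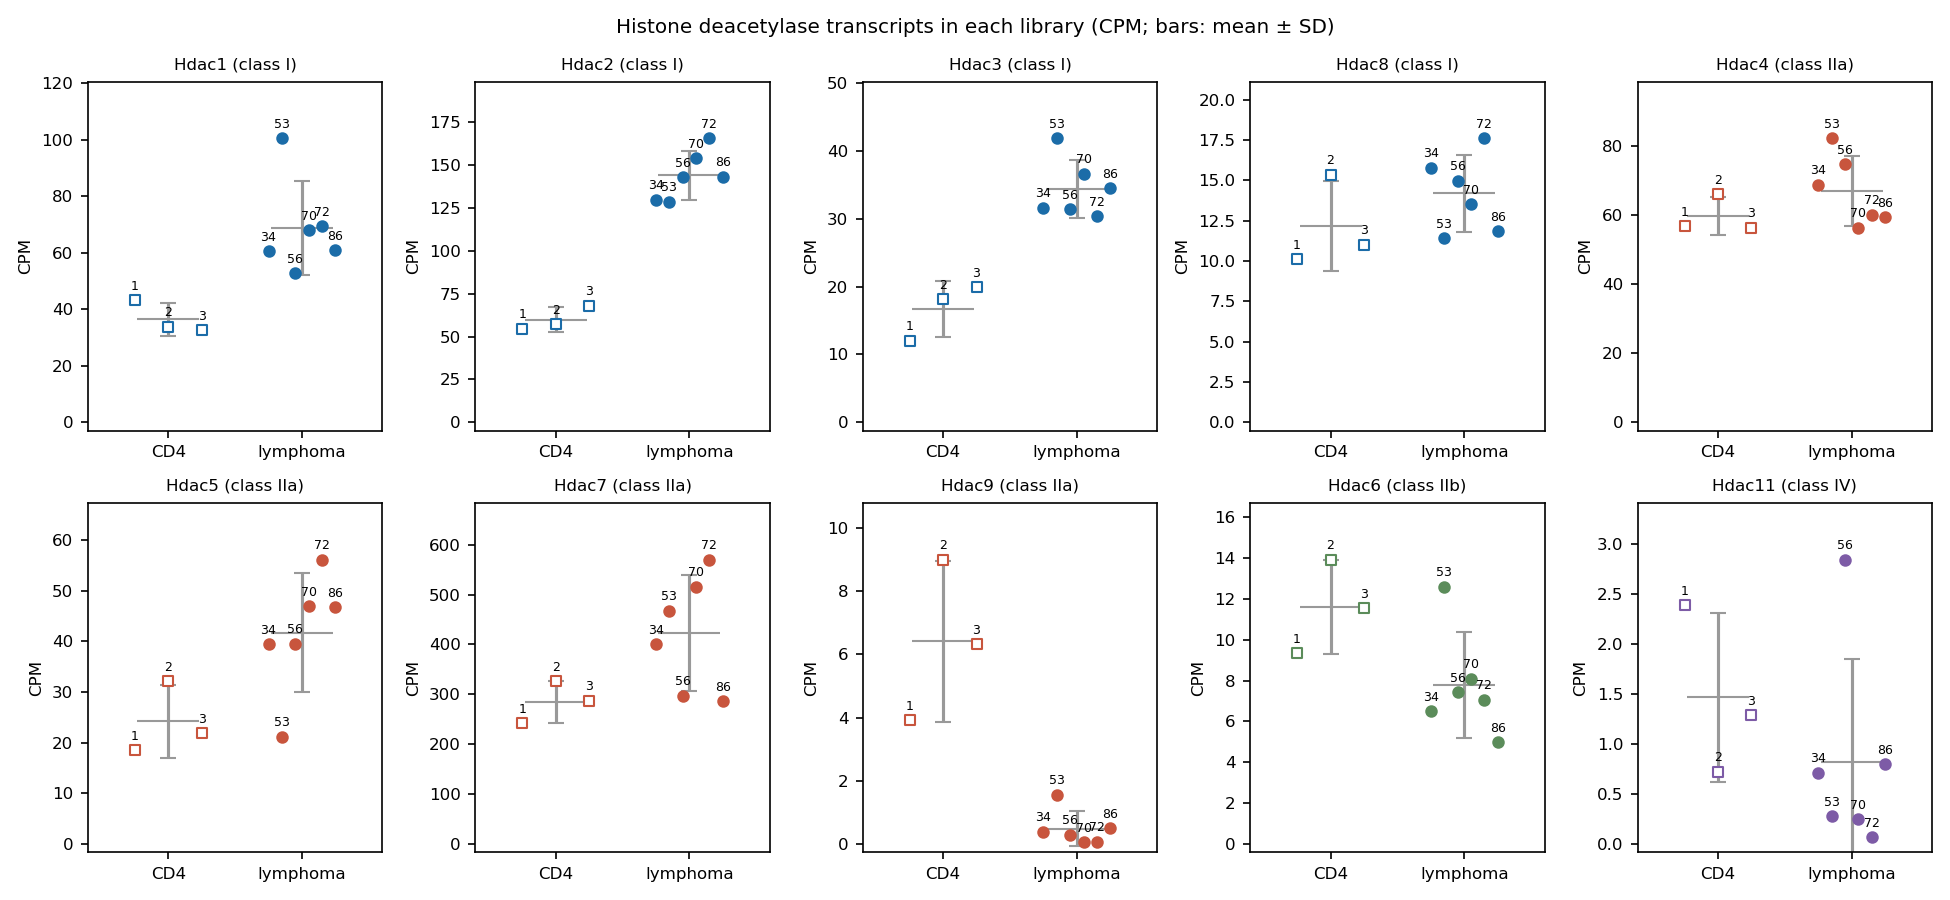
CPM of each member in the 3 CD4 libraries (open squares) and the 6 lymphomas (filled circles), with library numbers and the group mean ± SD. The vertical scale differs between panels. Hdac1, Hdac2, Hdac3 and Hdac9 show no overlap between the groups, and lymphoma 53 has the highest lymphoma value of 5 members.

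Hdac9 (ENSMUSG00000004698, chromosome 12, minus strand, 34047580 to 34917095) encodes a class IIa protein that binds MEF2 factors. CD4 1, 2 and 3 had 41, 75 and 69 counts, or 3.91, 8.999 and 6.33 CPM. Lymphomas 34, 53, 56, 70, 72 and 86 had 6, 17, 4, 1, 1 and 7 counts, and their highest level was 1.55 CPM in lymphoma 53. No lymphoma reached the lowest CD4 library, and lymphomas 70 and 72 had fewer than the 3 counts that a count of 0 would allow. The mean was 13.4-fold higher in CD4 (6.41 ± 2.54 CPM, SD, n = 3) than in lymphoma (0.477 ± 0.555 CPM, SD, n = 6). Hdac9 fell on the log2 scale, at -3.76 (SE 0.816, edgeR adjusted p 0.00260), and it was -4.58 without lymphoma 53 (edgeR adjusted p 0.000154). It entered the test through its CD4 counts, since of the lymphomas only lymphoma 53 held 10 counts or more. Such a gene could be called lower in lymphoma but hardly higher, so the call is no separate support for the fall. Markers of other cell types were also lower in lymphoma. The summed B cell markers stood at 1194, 1189 and 1026 CPM in CD4 1, 2 and 3, with 10 of 10 lower in lymphoma. In lymphoma the B cell sum was 5.50 to 10.3 CPM. The summed plasmacytoid dendritic cell markers stood at 783 to 837 CPM in CD4 and 95.9 to 390 CPM in lymphoma, with 7 of 8 lower. The highest lymphoma sum, 390 CPM, was in lymphoma 53, where 269 CPM came from Irf8 and the rest from the other markers of the list. Among the genes that define these cell types, Pax5 had 119 to 122 CPM in CD4 and at most 1.66 CPM in lymphoma. Siglech had 60.7 to 69.1 CPM in CD4 and at most 0.367 CPM in any lymphoma. No B cell marker and no plasmacytoid dendritic cell marker was at 0 in all lymphomas. Their part in the Hdac9 result was not tested.

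Hdac5 (ENSMUSG00000008855, chromosome 11, minus strand, 102194432 to 102230166) is a signal-responsive class IIa gene and the member whose promoter held both motifs. It had 18.5, 32.2 and 21.8 CPM in CD4 and a median of 43.1 CPM in lymphoma. Lymphoma 53 had 21.2 CPM, inside the CD4 range, and the other 5 lymphomas had 39.5 to 56.1 CPM, above all CD4 libraries. Hdac5 rose by 0.79 on the log2 scale (SE 0.290, edgeR adjusted p 0.0425), and it was 0.92 without lymphoma 53 (edgeR adjusted p 0.00286). The call was lost in 13 of 19 alternatives, including the fits without lymphoma 56, 70, 72 or 86 (edgeR adjusted p 0.0562, 0.0609, 0.0812 and 0.0654) and without CD4 1 or CD4 3 (0.154 and 0.130). Over all alternatives its adjusted p ranged from 0.00286 to 0.154.

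Hdac7 (ENSMUSG00000022475, chromosome 15, minus strand, 97792664 to 97844502), the class IIa gene known from thymocyte selection, split the lymphomas. The CD4 libraries had 242, 326 and 287 CPM. Lymphomas 56 and 86 had 297 and 286 CPM, inside that range, while lymphomas 34, 53, 70 and 72 had 400, 468, 515 and 570 CPM, above every CD4 library. The log2 fold change of Hdac7 was 0.57 (95% interval 0.06 to 1.08, SE 0.235) and missed the threshold (edgeR adjusted p 0.0659). It passed without lymphoma 56 (0.68, edgeR adjusted p 0.0366) and without lymphoma 86 (0.69, 0.0259). The terminal exon of Hdac7 shares its last 29 bases with Slc48a1 on the other strand in GENCODE M21, and since the strand setting is not given in the sources used here, reads from these bases cannot be assigned with certainty.

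Hdac4 (ENSMUSG00000026313, chromosome 1, minus strand, 91928779 to 92195699), the remaining class IIa member, had 56.8, 66.0 and 56.3 CPM in CD4 and 56.3 to 82.2 CPM in lymphoma, with a median of 64.4 CPM. The groups overlapped, and the log2 fold change was 0.16 (95% interval -0.21 to 0.53, edgeR adjusted p 0.459). Of the members that did not pass, Hdac4 had the narrowest interval. Its exons overlap the long noncoding gene Gm26720 on the other strand, 60272 bases from the 3′ end.

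Hdac6 (ENSMUSG00000031161, chromosome X, minus strand, 7930120 to 7947889) encodes the cytoplasmic deacetylase of alpha-tubulin. It had 9.35, 13.9 and 11.6 CPM in CD4. Lymphoma 53 had 12.6 CPM, within the CD4 range, and the other 5 lymphomas had 4.98 to 8.08 CPM, below it. The log2 fold change of Hdac6 was -0.58 (95% interval -1.29 to 0.13, edgeR adjusted p 0.166) and did not pass, but it was -0.77 without lymphoma 53 and then passed (edgeR adjusted p 0.0333). Hdac10, the other class IIb gene, is not among the 10 genes and was looked at after the values were seen. It had 30.9 ± 8.75 CPM (SD, n = 3) in CD4 and 26.7 ± 9.31 CPM (SD, n = 6) in lymphoma (edgeR adjusted p 0.587). Hdac6 and Hdac8 are X-linked, and the groups also differed in sex-linked transcripts: Xist had 493 to 582 CPM in CD4 and 4.66 to 11.3 CPM in lymphoma, and the Y-linked Ddx3y had at most 0.734 CPM and at least 119 CPM in the same order. Sex and group cannot be told apart here.

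Hdac11 (ENSMUSG00000034245, chromosome 6, plus strand, 91156665 to 91174692), the only class IV gene and an enzyme known to remove long fatty acyl groups, was close to the limit of these libraries. It had 25, 6 and 14 counts in CD4 1, 2 and 3 and 11, 3, 39, 4, 1 and 11 counts in lymphomas 34, 53, 56, 70, 72 and 86. Lymphoma 56 had the highest level of all 9 libraries at 2.84 CPM, and the groups overlapped. The log2 fold change was -0.83 with a 95% interval from -2.97 to 1.30 (edgeR adjusted p 0.520), so no difference was detectable at this depth. Its exons share 594 bases with Gm44002 on the other strand, starting 674 bases from the 3′ end, which leaves these low counts uncertain.

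The lymphomas differed in which members were high. Lymphoma 53 had the highest value of the 6 lymphomas for Hdac1, Hdac3, Hdac4, Hdac6 and Hdac9 and the lowest for Hdac2, Hdac5 and Hdac8. Lymphoma 72 had the highest value for Hdac2, Hdac5, Hdac7 and Hdac8. Lymphoma 34 was at neither end for any member. The highest lymphoma was 1.29 times the lowest for Hdac2 and 1.38 times for Hdac3, against 2.65 times for Hdac5 and 1.99 times for Hdac7.

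Class makeup was described within each library from the raw counts, which needs no scaling between libraries. It is a score over chosen genes and carries no test. Class I made up 26.5%, 21.7% and 25.5% of the members' counts in CD4 1, 2 and 3. In lymphoma it made up 29.0% to 38.6%, with a median of 32.0%, and the groups did not overlap. Without Hdac2 they did overlap, with the class I share of lymphoma 72 below that of CD4 1. Class IIa made up 72.9% ± 2.50 (SD, n = 3) in CD4 and 65.9% ± 3.85 (SD, n = 6) in lymphoma, also without overlap. The summed class IIa level was 376 ± 56.1 CPM (SD, n = 3) in CD4 and 532 ± 116 CPM (SD, n = 6) in lymphoma, with overlap, while the class I sum was 125 ± 5.81 CPM and 261 ± 20.4 CPM, without overlap. The class IIb share, which is Hdac6 alone, was 2.24% ± 0.184 (SD, n = 3) in CD4 and 0.971% ± 0.273 (SD, n = 6) in lymphoma. Within class IIa, Hdac7 held 75.3% to 77.3% of counts in CD4 and 72.2% to 83.3% in lymphoma, so most class IIa counts were of this gene. Hdac9 held 1.22% to 2.08% of class IIa counts in CD4 and at most 0.271% in lymphoma. Summed over the 10 members, counts came to 453 to 573 CPM in CD4 and 649 to 976 CPM in lymphoma.

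**Figure D3:**
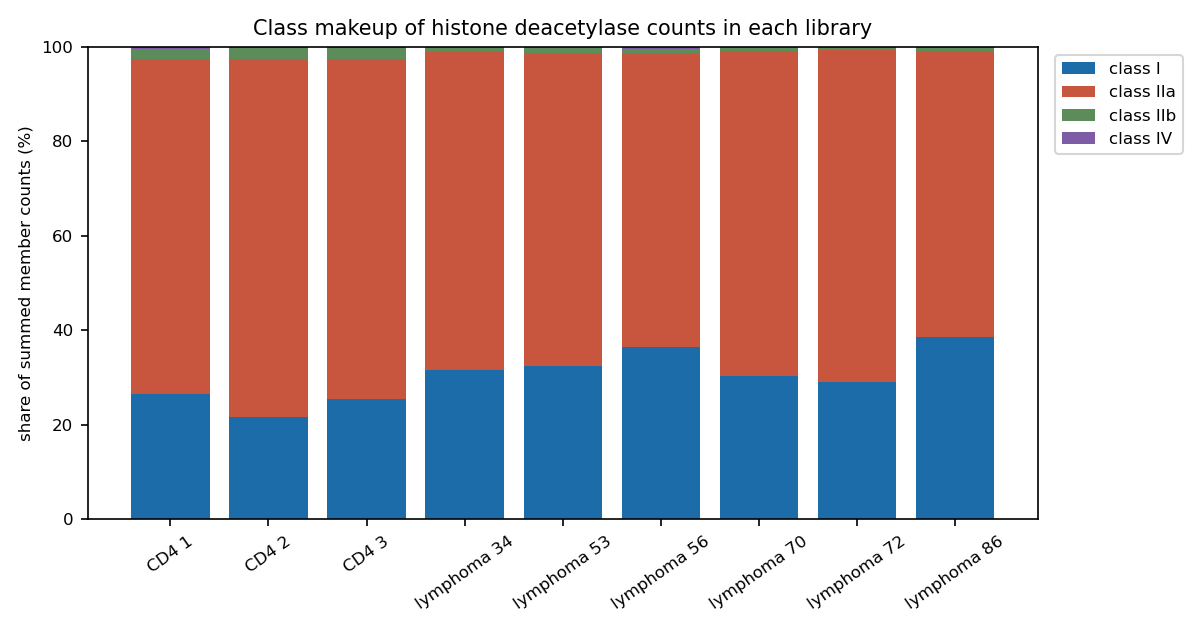
Share of the summed counts of the 10 members held by each class (vertical axis, percent) in each library. The class I part is 21.7% to 26.5% in CD4 and 29.0% to 38.6% in lymphoma, highest in lymphoma 86.

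Genes that work with the deacetylases were taken from 6 lists, which hold 69 genes in all. Lymphoma was higher at 18 and lower at 18 of the 67 that entered the test (53.7%, against 46.6% of all tested genes), with a median log2 fold change of 0.11. By list, the share called was 76.9% in NuRD, 23.5% in SIN3, 60% in CoREST, 33.3% in MiDAC and 50% in NCOR. It was 66.7% among class IIa partners and kinases. Over all tested genes 24.7% were higher and 21.9% lower, and the lists are small. In the NuRD complex, which joins HDAC1 or HDAC2 to chromatin remodelling helicases, 8 of 13 genes were higher and 2 lower, with a median of 0.61. The largest rises were Cdk2ap1 (2.31, SE 0.398), Mta1 (1.56, SE 0.254) and Rbbp7 (1.44, SE 0.238). Cdk2ap1 is a small NuRD subunit, Mta1 the scaffold that holds the deacetylase, and Rbbp7 a histone-binding subunit also present in other complexes. Mta1 had 138 to 324 CPM in lymphoma and 65.9 to 97.6 CPM in CD4. The helicase genes Chd5 (-2.04, SE 0.470) and Chd3 (-1.08, SE 0.187) were lower by edgeR. The level of Chd3 was 339 to 423 CPM in CD4 and 130 to 232 CPM in lymphoma. Without CD4 1 the change of Cdk2ap1 was 2.93.

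In the SIN3 complex 2 of 17 genes were higher, 2 were lower and 13 did not pass, with a median log2 fold change of 0.13. Sap30, a subunit that bridges SIN3 and the deacetylase, rose by 1.96 (SE 0.384), from 1.47 to 1.80 CPM in CD4 to 5.48 to 8.37 CPM in lymphoma. Sap18 rose by 0.66 (SE 0.199, edgeR adjusted p 0.0163), a call that was lost without CD4 2 (0.0729) and without CD4 3 (0.0732). The DNA-binding subunits Arid4a and Arid4b fell by 1.83 (SE 0.157) and 1.25 (SE 0.260). Arid4a had 743 to 814 CPM in CD4 and 168 to 277 CPM in lymphoma.

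CoREST, which pairs HDAC1 or HDAC2 with the demethylase KDM1A, had 3 of 10 genes higher and 3 lower, with a median log2 fold change of -0.07. The scaffold paralogues moved apart: Rcor2 rose by 3.29 (SE 0.634), from 0.720 to 3.82 CPM in CD4 to 9.31 to 40.5 CPM in lymphoma, and Rcor3 fell by 1.11 (SE 0.243). Without CD4 1 the change of Rcor2 was 4.03. Rcor1 changed by 0.01 and did not pass (edgeR adjusted p 0.945). Zmym3 rose by 1.41 (SE 0.195), and Phf21a, which reads unmethylated histone H3, fell by 2.23 (SE 0.214), from 212 to 222 CPM in CD4 to 30.3 to 63.6 CPM in lymphoma. Kdm1a rose by 0.63 (SE 0.222, edgeR adjusted p 0.0362), lost without CD4 1 (0.125), without CD4 3 (0.0927), and in all 9 libraries with RLE scaling (0.0534) or upper quartile scaling (0.0759). Gse1 fell by 0.91 (edgeR adjusted p 0.0208), lost without CD4 2 (0.165).

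MiDAC, the mitotic deacetylase complex, had 1 of 3 genes lower and 2 that did not pass: the scaffold Elmsan1 fell by 1.57 (SE 0.243). In the list for the NCOR complex of HDAC3, 1 of 6 genes was higher and 2 lower, with a median log2 fold change of 0.19. The higher gene was Cops2, a subunit of the COP9 signalosome, which rose by 0.72 (edgeR adjusted p 0.0168). Gps2, a small core subunit of the NCOR complex, fell by 0.59 (0.0164). Both calls were lost without CD4 2 (0.0755 and 0.0608), and that of Gps2 also with lymphomas 34, 70 and 72 averaged into 1 library (0.0625). The scaffold Ncor1 fell by 0.34 (edgeR adjusted p 0.0481), and its adjusted p was between 0.0526 and 0.180 in the 7 fits without lymphoma 34, 56, 70 or 86 or without any 1 CD4 library, 0.0877 with lymphomas 34, 70 and 72 averaged, and 0.148 with no expression filter.

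Among 20 genes of class IIa partners and regulating kinases, 18 entered the test, and 4 were higher and 8 lower at a median log2 fold change of -0.41. Mef2c, a transcription factor that class IIa proteins repress, fell by 7.14 (SE 0.352, edgeR adjusted p 1.36e-07). It had 257 to 300 CPM in CD4 and 0.851 to 3.47 CPM in lymphoma. B cells also express Mef2c, and the summed B cell markers given above (1026 to 1194 CPM in CD4, 5.50 to 10.3 CPM in lymphoma) were also lower in lymphoma. Their part in this result was not tested. The kinase genes Prkd2 and Camk1d, whose families phosphorylate class IIa proteins, fell by 1.98 (SE 0.150) and 1.36 (SE 0.157). Prkd2 had 202 to 248 CPM in CD4 and 49.2 to 65.9 CPM in lymphoma. All 4 genes that rose were of the Ywha family, whose proteins hold phosphorylated class IIa proteins in the cytoplasm, and the largest rises were Ywhae (1.26, SE 0.219), Ywhaq (1.09, SE 0.197) and Ywhab (1.06, SE 0.150).

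**Figure D4:**
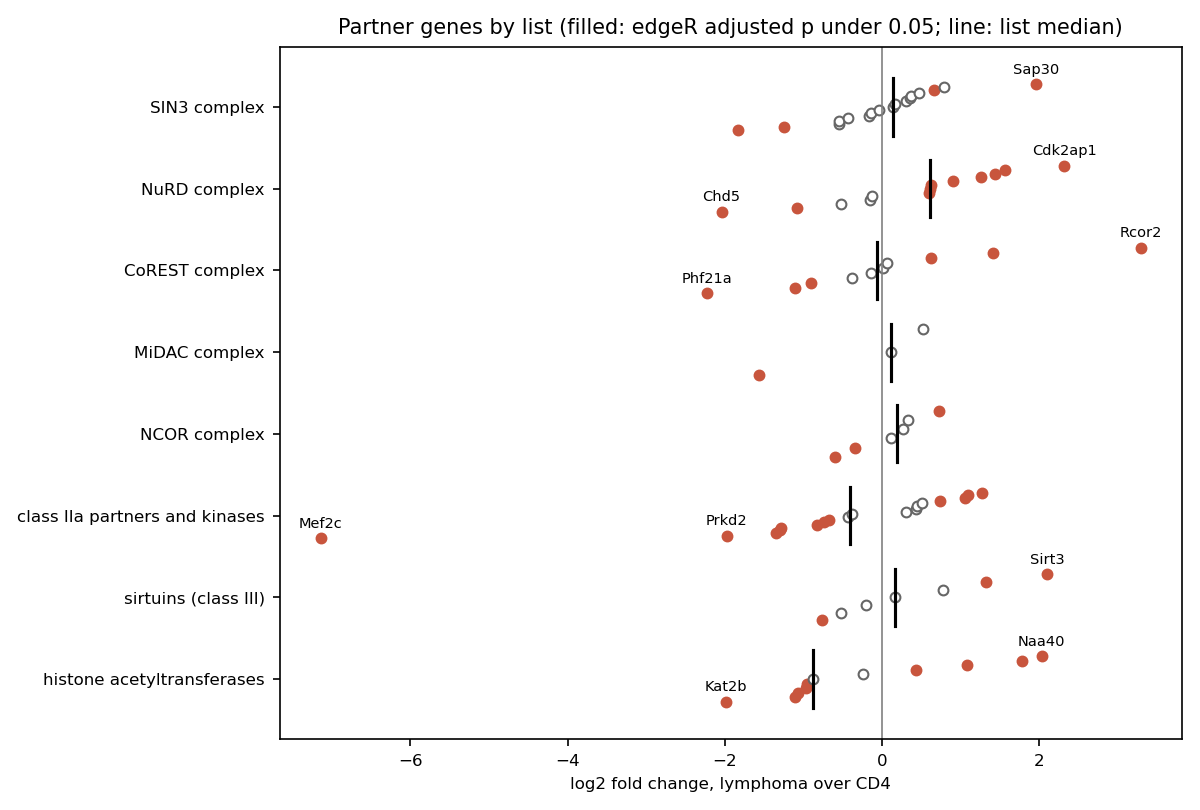
Log2 fold change, lymphoma over CD4, of the 85 tested genes of 8 lists of partners, sirtuins and acetyltransferases. Filled points passed at an edgeR adjusted p under 0.05, the black line is the median of the list, and Mef2c stands alone at -7.14.

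Enzymes of the same and the opposite reaction were taken next. Of the 7 sirtuins, the class III deacetylases that depend on NAD, 2 were higher and 1 lower, with a median log2 fold change of 0.17. That is 42.9% called, close to the 46.6% of all tested genes. The mitochondrial sirtuin genes Sirt3 and Sirt5 rose by 2.10 (SE 0.651) and 1.32 (SE 0.364), and the nucleolar Sirt7 fell by 0.76 (SE 0.177). Sirt3 had 0.120 to 2.67 CPM in CD4 and 4.87 to 8.30 CPM in lymphoma, and its change was 2.78 without CD4 1. Its call was lost without CD4 3 (edgeR adjusted p 0.0523). Of 11 acetyltransferases, 4 were higher and 5 lower (81.8% called, against 46.6% of all tested genes), with a median of -0.88. The transcriptional coactivators Kat2b (-1.99, SE 0.255), Crebbp (-1.11, SE 0.145) and Kat6a (-1.07, SE 0.154) fell. Crebbp had 421 to 489 CPM in CD4 and 172 to 230 CPM in lymphoma. Kat2a, the paralogue of Kat2b, rose by 1.09 (SE 0.225). Naa40, which acetylates the N-termini of histones and not their lysines, rose by 2.03 (SE 0.194), and Hat1, which acetylates newly made histones, rose by 1.78 (SE 0.282). Hat1 had 20.8 to 41.5 CPM in CD4 and 78.4 to 145 CPM in lymphoma.

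The genes whose pattern was most like that of Hdac2 over the 9 libraries were Col11a1, Clspn and Prim1, with a Pearson r of log2 CPM of 0.992, 0.991 and 0.990 among 9423 genes. Those most like Hdac9 were Camk2d, Zeb2 and Cln3, with 0.986, 0.985 and 0.984. These values describe likeness only, since any gene that separates the groups scores high. Over the 6 lymphomas alone they were 0.917, 0.680 and 0.739 for the first set and 0.972, 0.960 and 0.941 for the second. These are no separate check, since the genes were ranked with the same 6 lymphomas included. Hdac9 also had only 1 to 17 counts in them, with the most in lymphoma 53.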

How the data were processed

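Transcript 3′ ends were sequenced in 6 lymphoma and 3 CD4 RNA samples. The deposited table gives raw read counts per Ensembl gene with a symbol, per the file headers. HISAT2, SAMtools, HTSeq and FastQC and the builds mm10 and GRCm38 are named in the submitters' processing notes, without versions. Reads aligned to several places are in no gene's count, and the rows for unassigned reads were left out. Reads in genes were 38.7% to 49.1% of all reads in lymphoma and 27.8% to 35.0% in CD4. The number of columns matching no sample was 0.

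The test was edgeR 4.0.16 in R 4.3.3 with filterByExpr at a minimum count of 10, TMM scaling, glmQLFit (robust) and glmQLFTest over all 9 libraries without covariates, and Benjamini-Hochberg adjustment over 15401 genes at 0.05. SE is the absolute log2 fold change over the square root of F, and a prior count of 2 was added for log2 CPM. Alternatives used limma 3.58.1, DESeq2 1.42.0 and other scalings and filters. Gene coordinates are from GENCODE M21.

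The members and lists were chosen with earlier results of these data known. Named partner genes are the up to 3 largest rises and falls of each list past the threshold, and the 3 genes most like the members with the largest rise and fall among genes with an average log2 CPM of at least 3. Some genes counted in the lists are not reported here by name.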

Additional observations from a re-analysis of the deposited data

Results flagged for a closer look

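In 49 measures over the 6 lymphomas, 8 had 1 lymphoma far from the others, that is, a gap to its neighbour whose share of the range of all 6 passed the 95% limit of Dixon, where chance gives about 1 in 20, or 2.45. Lymphoma 53 stood high in Hdac1 (101 CPM), Hdac9 (1.55 CPM) and the demethylase gene Kdm1a (130 CPM). Lymphoma 56 stood high in Hdac11 (2.84 CPM) and in the class IV share that is this same gene (0.428% of member counts). Lymphoma 86 stood high in Sap30 (8.37 CPM), Sirt5 (19.6 CPM) and Hat1 (145 CPM). Of the lymphomas, lymphoma 56 also had the highest sum of myeloid markers (2172 CPM) and lymphoma 86 the highest of erythroid markers (902 CPM), and their part in these values was not tested.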

How the results depend on the processing

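Of the 10 members, 7 kept their direction and their side of the threshold in every alternative that tested them, at most 19 each, and the exceptions were Hdac5, Hdac6 and Hdac7. No member or named partner changed direction: of 830 single-gene results, 786 kept direction and call, 41 lost the call and 3 gained it. The count of members lower in lymphoma was 0 when every library had to hold 10 counts or more of a gene, a filter that removes Hdac9. Leaving out 1 library gave 3 to 4 members higher and 1 to 2 lower, the 2 without lymphoma 53, where Hdac6 also passed. Genes higher in the 8 lists of partners, sirtuins and acetyltransferases numbered 15 at an adjusted p under 0.01, against 24, and 18 to 28 with 1 library left out, when 19 to 28 were lower. The mean class I share was 18.1% in lymphoma and 14.5% in CD4 without Hdac2, and the groups then overlapped. It was 47.7% in lymphoma and 25.6% in CD4 with each member's CPM divided by its own mean. The class IIa share was 28.9% and 39.3% without Hdac7, and 35.9% and 47.7% with the divided values, in lymphoma and CD4. Leaving out 1 library gave class I shares of 31.9% to 33.9% and 23.6% to 26.0%, and class IIa shares of 65.0% to 66.9% and 71.5% to 73.9%, in the same order. No paired analysis was possible because the groups share no replicate numbers. Depth limits Hdac9 and Hdac11, whose lymphoma counts reach down to 1.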
